A study of Mus musculus with 4 samples.

Results

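The cytoplasmic ribosomal protein genes of mouse LSK cells were examined gene by gene in 4 messenger RNA libraries. LSK cells are the lineage-negative, Sca-1-positive, c-Kit-positive marrow cells among which blood stem cells and the earliest progenitors are found. Members were taken by name from the deposited expression table: Rpl or Rps with a number and an optional final a, x or y, together with Rplp0, Rplp1, Rplp2 and Rpsa. This rule found 76 of 46517 genes, 46 of the large subunit and 30 of the small subunit, all annotated as protein coding. The compared groups were Setd2D/D, in which Setd2 is knocked out (2 libraries), and Setd2f/f, which carries wild-type Setd2 (2 libraries), both from C57BL/6 mice aged 8 to 10 weeks. Which Cre or promoter removed the gene, which exons were deleted and whether animals were pooled is not stated in the labels. Levels are TPM values, in which a gene's level is corrected for transcript length and every library is scaled to the same total.

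Cytoplasmic ribosomes are built from a large subunit, which joins amino acids, and a small subunit, which reads the messenger RNA. Each subunit takes up most of its proteins in equal numbers, so their genes are among the most highly expressed in a growing cell. Most of the messages begin with a stretch of C and T, the 5′-terminal oligopyrimidine (TOP) tract, through which mTOR signalling controls their translation. In human blood, heterozygous loss of any of a number of these genes causes Diamond-Blackfan anaemia. The genes have also seeded a large number of processed pseudogenes, reverse-transcribed copies of the spliced message that sit elsewhere in the genome and can match the parent gene base for base.

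Near-identical copies were therefore looked for before the levels were read. A search of GENCODE M21 transcripts for copies at another locus (at least 95% identity over at least 150 nt and at least 50% of the copy) found 470 for 71 members, of which 447 were processed pseudogenes. Coding stretches of 90 nt (GRCm38, mm10) are printed for 3 members whose results turn on a copy, with the single differing base in capitals. Rpl3 lies at chr15:80082493-80082582 (minus strand) and Rpl3-ps1 at chrX:13202575-13202664 (plus strand).
Rpl3: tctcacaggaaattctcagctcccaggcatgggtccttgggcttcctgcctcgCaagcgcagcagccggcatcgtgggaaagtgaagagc
Rpl3-ps1: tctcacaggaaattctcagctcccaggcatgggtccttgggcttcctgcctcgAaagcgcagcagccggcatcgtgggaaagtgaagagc
Over their whole alignment of 1210 nt these sequences differed at 2 bases. The stretches of Rps12 (chr10:23786791-23786880, minus strand), Rps12l1 (chr7:56014030-56014119, plus strand) and Rps12-ps3 (chr19:59322385-59322474, plus strand) were the same in every base.
Rps12: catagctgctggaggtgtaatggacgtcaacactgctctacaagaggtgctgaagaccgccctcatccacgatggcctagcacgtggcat
Rps12l1: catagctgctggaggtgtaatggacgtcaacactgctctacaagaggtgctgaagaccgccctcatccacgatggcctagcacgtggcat
Likewise, Rpl10 (chrX:74271800-74271889, plus strand) and Rpl10-ps1 (chr2:105554674-105554763, minus strand) had no mismatch over 645 aligned nt.
Rpl10: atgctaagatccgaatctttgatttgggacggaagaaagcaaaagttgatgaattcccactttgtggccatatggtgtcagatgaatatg
A read that lies within an identical stretch carries nothing that assigns it to the gene or to the copy, and how the authors divided such reads is not stated in the sources used. Members' values below are therefore those of the gene alone unless copies are named, and the sum of gene and copies is added where it differs.

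Facts of the whole experiment that touch these genes were as follows. Setd2 itself was at 43.4 and 49.5 TPM in Setd2D/D, against 78.9 and 68.0 TPM in Setd2f/f, and its log2 change of -0.65 ± 0.15 (SE) did not pass limma (adjusted p = 0.329) but passes in the authors' deposited table (FDR 5.84e-06). A gene model with some exons deleted can keep reads, so this is a partial check of the labels. Between 14360 and 14610 genes reached 1 TPM per library, and read depth is unknown because no counts were analysed here. Over genes, the Setd2D/D libraries had a Pearson correlation of 0.9125 with each other and the Setd2f/f libraries 0.9594. Setd2D/D replicate 1 had 0.9102 and 0.9131 with the Setd2f/f libraries, and Setd2D/D replicate 2 had 0.9336 and 0.9415, above that with its own replicate. Of 16 erythroid marker genes, 11 are called higher in the authors' deposited table and 0 by limma (13 at an unadjusted p under 0.05), all 14 tested genes lay above the Setd2f/f range, and none was at 0 in every library. Their summed level was 674 and 609.8 TPM in Setd2D/D, against 195 and 229.6 TPM in Setd2f/f. Of 10 B cell genes the authors' deposited table calls 7 lower and limma 0 (3 at an unadjusted p under 0.05, and 3 genes with a positive change), with a summed level of 196 and 298 TPM in Setd2D/D, against 601 and 328 TPM in Setd2f/f. Of 14 granulocyte and monocyte genes that table calls 5 higher and 2 lower and limma 0 (6 at an unadjusted p under 0.05), with sums of 3455 and 5146 TPM in Setd2D/D, against 2826 and 3444 TPM in Setd2f/f. Of 10 T and NK cell genes it calls 2 lower and limma 0 (2 of 4 tested at an unadjusted p under 0.05). Their sums were 120.1 and 151 TPM in Setd2D/D, against 189 and 188 TPM in Setd2f/f. These sums rest largely on the highest gene, with a mean of 109 TPM against a list median of 0.74 TPM. Cd3d, Cd3e and Cd3g, which define T cells, were between 0 and 2.35 TPM. Of 8 megakaryocyte genes the authors' deposited table calls 2 lower, of 8 stromal and endothelial genes 1, and of 2 LSK gate genes 1. limma called 0 in these lists, and the gate genes' log2 changes were -1.02 and 0.31. All these counts stand beside 1.51% of genes called higher and 1.64% called lower in that table. Of all genes tested by limma, 11.2% had an unadjusted p under 0.05, 16.8% lay above the Setd2f/f range and 27.6% below. The part of these markers' changes in the members' values was not tested. In bulk samples, fewer cells of a type and less RNA per cell cannot be told apart.

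As a whole, the ribosomal protein genes took nearly the same share of the message in both genotypes. The 76 members summed to 14.7% and 15.4% of the TPM total in Setd2D/D, against 15.0% and 15.6% in Setd2f/f. With their copies they made up 21.2% and 22.4% in Setd2D/D, against 21.1% and 22.4% in Setd2f/f. The replicates of a genotype lay further apart than the genotype means on both measures, and in each genotype replicate 1 was the lower library. That order was shared by most members, with 53 lower in Setd2D/D replicate 1 than in replicate 2 and 61 lower in Setd2f/f replicate 1 than in replicate 2.

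Levels of single members ran over a wide range, and the lowest members were those with abundant copies. Rps24, a protein of the small subunit body, was the highest at 5323 and 5573 TPM in Setd2D/D, against 5126 and 5266 TPM in Setd2f/f. It was followed by Rpl13a, Rps4x, Rps27 and Rplp1, of which Rplp1 had the lowest mean, 3737 TPM. At the other end stood Rpl5, Rpl27, Rpl12 and Rpl10. Rpl5, which binds 5S ribosomal RNA, was listed at 107 and 113 TPM in Setd2D/D, against 112 and 123 TPM in Setd2f/f. Its copy Gm15500, identical over 1018 aligned nt, was at 2440.2 and 2662 TPM in Setd2D/D, against 2769 and 2754 TPM in Setd2f/f. The gene therefore held 4.09% of the summed level of gene and copies.

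Other low members had the same arrangement. Rpl12 held 4.63% of its sum beside the copy Gm10275, and Rpl27 6.62% beside Gm11518 and Rpl27-ps3. Rpl10 held 10.7% beside Rpl10-ps1 and Rpl10-ps3. Rps7, an early-assembling small subunit protein, held 12% beside Gm6472 and Gm9493, and Rps23, a protein of the decoding centre, 15.1% beside Rps23-ps1. In total 22 members held under 50% of their sum and 31 held over 99%, and 41 copies of 35 members had a mean level of at least 100 TPM. Of these 41 copies, 23 were identical to the member over the alignment and the lowest identity was 98.8%.

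**Figure D1:**
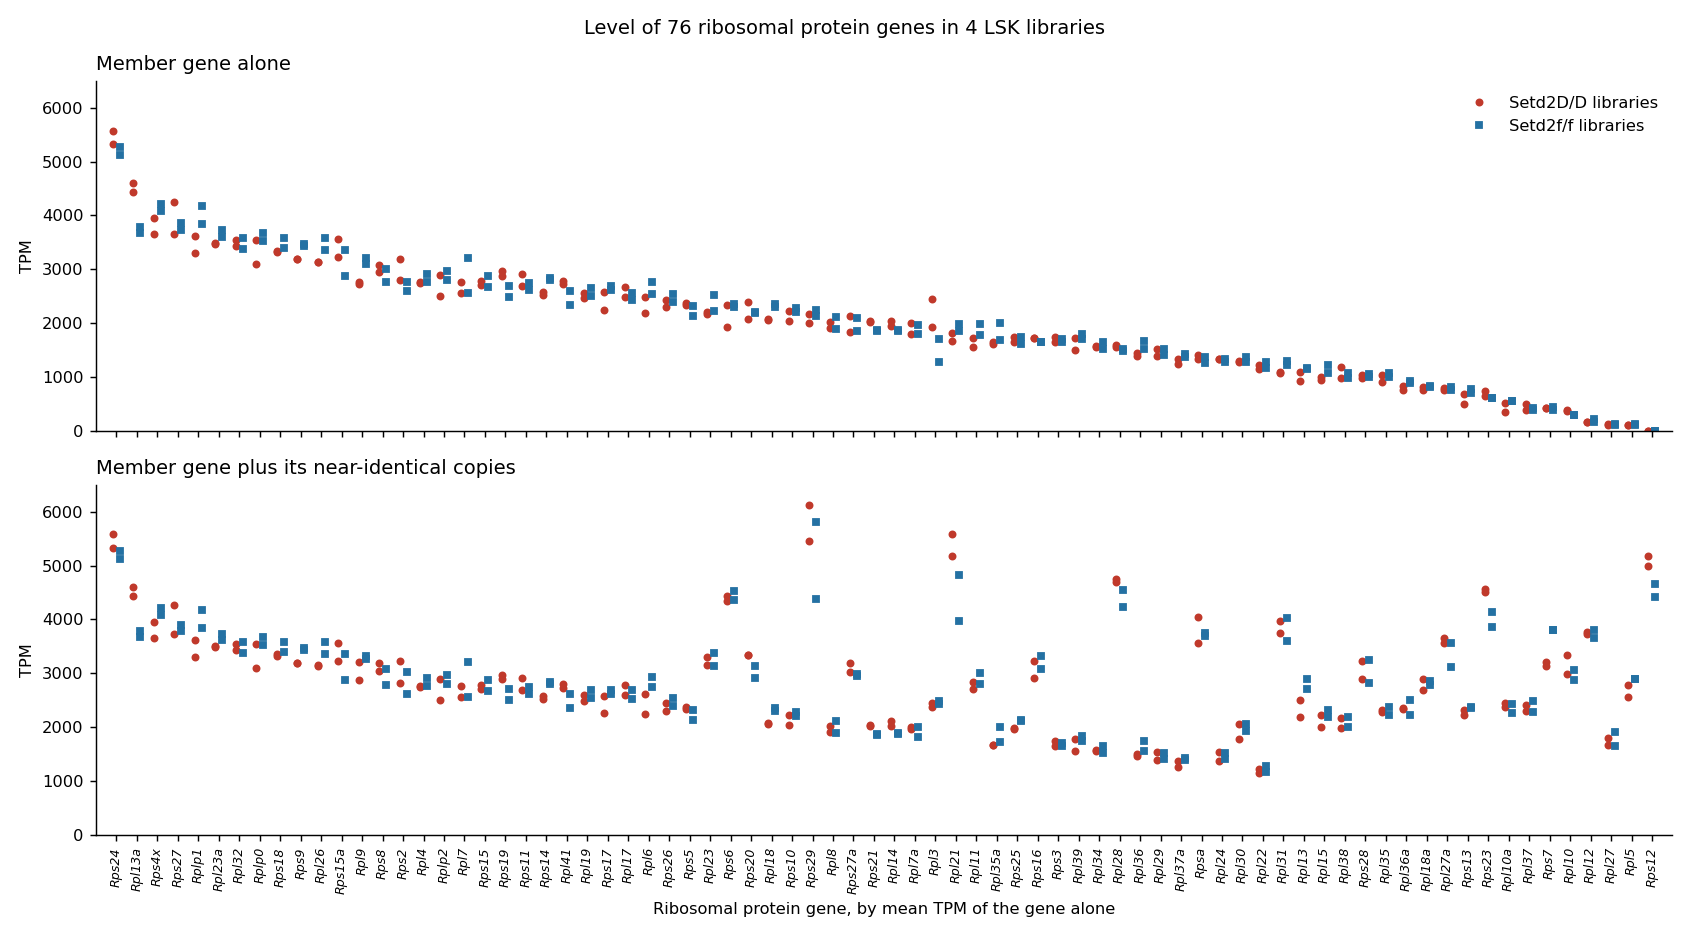
Level in TPM of each of the 76 ribosomal protein genes, ordered by the mean of the gene alone. Circles are the 2 Setd2D/D libraries and squares the 2 Setd2f/f libraries; the upper panel shows the gene alone and the lower panel the gene plus its near-identical copies. The tail under 1000 TPM (14 members) in the upper panel is empty in the lower panel, and the groups lie close together for most genes.

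Rps12 was the extreme case. The gene, which encodes a protein of the small subunit head (chromosome 10, 23785183 to 23787275), was listed at 0 in all 4 libraries, so no fold change can be given for it. Rps12l1, the identical sequence printed above, was at 3010 and 2566 TPM in Setd2D/D, against 2410 and 2275 TPM in Setd2f/f. Rps12-ps3, named a pseudogene but annotated as protein coding, was at 1975 and 2607 TPM in Setd2D/D, against 1996 and 2366 TPM in Setd2f/f. Summed with its copies, Rps12 stood at 4988 and 5174 TPM in Setd2D/D, against 4415 and 4650.1 TPM in Setd2f/f. Both Setd2D/D sums were above both Setd2f/f sums, but the log2 change of 0.17 ± 0.08 (SE) did not pass limma (adjusted p = 0.509).

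With copies added, the family became far more even. The highest mean level was 46.7-fold the lowest among the 75 members above 0 when genes stood alone, and 4.53-fold over all 76 with copies. The SD of the log2 mean level over those 75 members was 1.12 for genes alone and 0.47 with copies. No member remained under 1000 TPM, against 14 for genes alone. Rpl22, a large subunit protein with a role in lymphocyte development in mice, was then the lowest, at 1142 and 1228 TPM in Setd2D/D, against 1169 and 1268 TPM in Setd2f/f.

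No member passed the test between the genotypes. Of 75 tested members (Rps12 had no value), 0 passed limma at an adjusted p of 0.05, where 0.0678% of the 14755 genes tested did (10 genes). At an unadjusted p under 0.05 there were 3 members (Rpl3, Rpl10 and Rpl13a, all higher), where 11.2% of all genes reached that level and 4.17% did so with a higher value in Setd2D/D. Adjusted p-values of the members ran between 0.355 and 0.992. No label ties the replicates to separate mice, so these p-values measure only the spread between libraries, which may be technical, and an exact permutation test of 2 against 2 cannot go below p = 0.333.

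The members differed less between genotypes than genes at large. Their median absolute log2 change was 0.095, against 0.24 over all genes tested, and the SD of the log2 change was 0.15, against 0.63. The same held between replicates, where the members' median absolute log2 difference was 0.082 within Setd2D/D and 0.085 within Setd2f/f, against 0.29 and 0.20 over all genes. The median mean level was 1937 TPM for the members, against 19.3 TPM over all genes tested. Genes of like level were not compared, so the part of level in these differences was not tested. These values are descriptions, and no test of the members against the other genes was made. The median log2 change was -0.04 for the members, against -0.06 for all genes tested. The members' median turned to 0.013 with trimmed-mean (TMM) scaling and to 0.020 with median-of-ratios scaling, so it carries no direction.

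**Figure D2:**
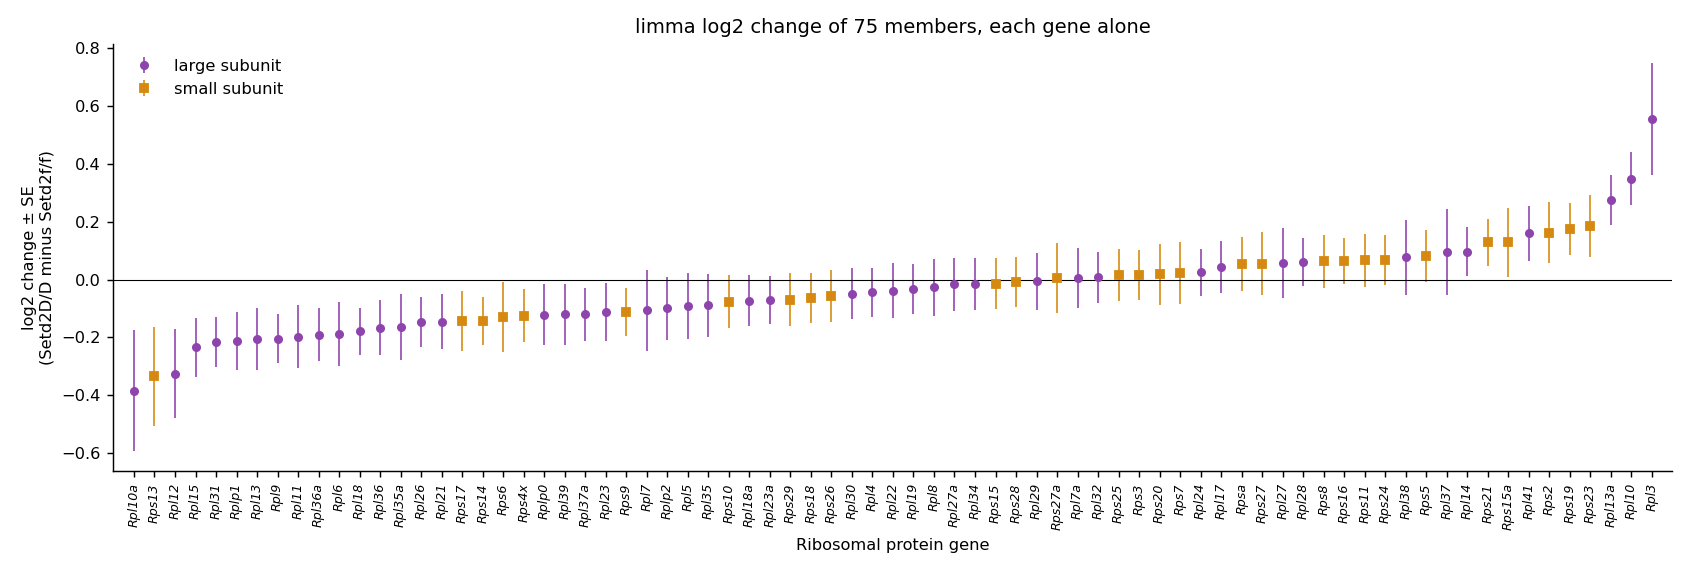
limma log2 change (Setd2D/D minus Setd2f/f, on log2(TPM + 1)) with its standard error for the 75 tested members, each gene alone and ordered by the change. Circles are large subunit and squares small subunit genes; Rpl3, Rpl10 and Rpl13a stand at the upper end and Rpl10a, Rps13 and Rpl12 at the lower end, and the error bar of 40 members reaches across 0.

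Rpl3, a large subunit protein beside the peptidyl transferase centre, gave the largest change. It was at 1925 and 2447 TPM in Setd2D/D, against 1279.6 and 1706 TPM in Setd2f/f. Both Setd2D/D libraries were above both Setd2f/f libraries, with a log2 change of 0.55 ± 0.19 (SE, unadjusted p = 0.0362, limma adjusted p = 0.423). Leaving out single libraries gave 0.35 (Setd2f/f replicate 1 out) to 0.76 (Setd2f/f replicate 2 out). In the authors' deposited table Rpl3 was the only member past an FDR of 0.05, with a log2 fold change of 0.60 and an FDR of 9.37e-05. That is 1 of 75 members (1.33%), where the authors' deposited table calls 3.15% of its 23955 genes, 1.51% higher and 1.64% lower. Among the 14755 genes tested by limma, that table calls 331 higher and 375 lower.

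The copy of Rpl3 moved the other way. Rpl3-ps1 was at 438 and 0 TPM in Setd2D/D, against 1148 and 770.4 TPM in Setd2f/f, with a log2 fold change of -2.09 and an FDR of 2.52e-50 in the authors' deposited table, though it did not pass limma (adjusted p = 0.530). Within each genotype, too, the library with more Rpl3 had less Rpl3-ps1. Summed over gene and copies, the level was 2364 and 2448 TPM in Setd2D/D, against 2429 and 2479 TPM in Setd2f/f. The summed groups overlapped, and the log2 change was -0.03 ± 0.08 (SE, limma adjusted p = 0.917).

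**Figure D3:**
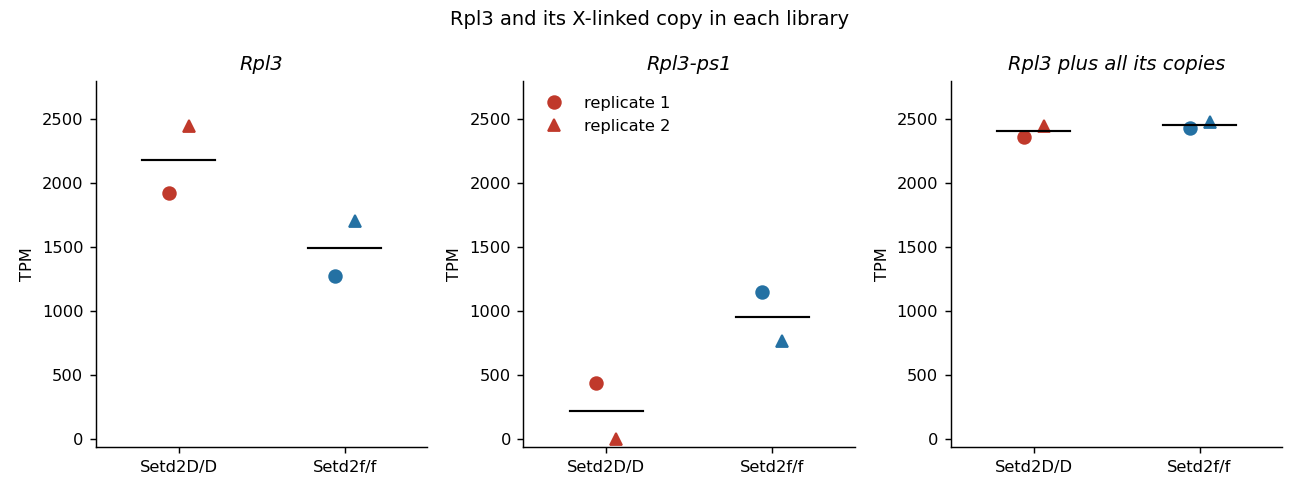
TPM of Rpl3, of its copy Rpl3-ps1 and of Rpl3 with all its copies in each library, with Setd2D/D on the left; the circle is replicate 1, the triangle replicate 2 and the bar the mean of the 2 libraries. Rpl3 is higher and Rpl3-ps1 lower in Setd2D/D, and the sums lie between 2364 and 2479 TPM in all 4 libraries.

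Rpl10, an X-linked protein that joins the large subunit late in its assembly, was second. It was at 381 and 358 TPM in Setd2D/D, against 293 and 287 TPM in Setd2f/f, with no overlap (log2 change 0.35 ± 0.09 SE, limma adjusted p = 0.355). The authors' deposited table gives an FDR of 0.0618. With its copies, Rpl10 was at 2994 and 3336 TPM in Setd2D/D, against 2876 and 3067 TPM in Setd2f/f. The summed groups overlapped, and the log2 change was 0.09 ± 0.10 (SE, limma adjusted p = 0.759).

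Rpl13a differed from both, since it had almost no measured copy. This large subunit protein, released from the ribosome in interferon-treated human monocytes to silence selected messages, was at 4430.2 and 4598 TPM in Setd2D/D, against 3678 and 3789 TPM in Setd2f/f. Both Setd2D/D libraries were higher, by a log2 change of 0.27 ± 0.09 (SE, unadjusted p = 0.0256, limma adjusted p = 0.407), and adding copies left it at 0.27. Its change did not pass in the authors' deposited table (log2 fold change 0.31, FDR 0.198). The gene lies on chromosome 7 (45125558 to 45128761, minus strand) and holds 4 snoRNA genes within its span. In all, 29 members held 56 snoRNA genes. Members with snoRNA genes had a median log2 change of -0.01, against -0.06 for the 47 without.

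The next 3 of the largest positive changes belonged to the small subunit. Rps23 was at 739.7 and 636 TPM in Setd2D/D, against 603 and 604 TPM in Setd2f/f (log2 change 0.18 ± 0.11 SE). Rps19, the gene most often mutated in Diamond-Blackfan anaemia, was at 2880.4 and 2964 TPM in Setd2D/D, against 2492 and 2691 TPM in Setd2f/f (log2 change 0.17 ± 0.09 SE). Rps2, a protein at the entry of the messenger RNA channel, was at 2805 and 3187 TPM in Setd2D/D, against 2588 and 2761 TPM in Setd2f/f (log2 change 0.16 ± 0.11 SE). The genotypes did not overlap for any of these genes, and their limma adjusted p-values lay between 0.530 and 0.601. The log2 change of Rps23 was 0.08 without Setd2D/D replicate 1, and that of Rps2 was 0.07 without Setd2D/D replicate 2. With copies, Rps23 and Rps19 kept log2 changes of 0.18 and 0.17, but Rps2 overlapped between the genotypes at 2827 and 3226 TPM in Setd2D/D, against 2607 and 3021 TPM in Setd2f/f (log2 change 0.11 ± 0.12 SE).

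At the lower end, 5 of the 6 largest negative changes belonged to genes with an abundant copy. Rpl10a, a protein of the L1 stalk, was at 342 and 517 TPM in Setd2D/D, against 549.8 and 547 TPM in Setd2f/f, so that Setd2D/D replicate 1 set most of the log2 change of -0.38 ± 0.21 (SE, limma adjusted p = 0.546). Without that library the log2 change was -0.09. With Rpl10a-ps1 added, it was 0.05 ± 0.08 (SE).

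Rps13, which sits in the small subunit body, was at 498 and 678 TPM in Setd2D/D, against 699.8 and 768 TPM in Setd2f/f. Without Setd2D/D replicate 1 its log2 change of -0.33 ± 0.17 (SE) became -0.11, and with copies it was -0.06 ± 0.08 (SE). Rpl12, at the base of the stalk, was at 153 and 153 TPM in Setd2D/D, against 168 and 219 TPM in Setd2f/f. Its log2 change was -0.32 ± 0.15 (SE) alone, -0.13 or -0.51 when Setd2f/f replicate 2 or replicate 1 was left out, and 0.01 ± 0.08 (SE) with copies.

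Rpl15 and Rpl31 completed the group with copies. Rpl15, a large subunit core protein, was at 948 and 993 TPM in Setd2D/D, against 1069.8 and 1218 TPM in Setd2f/f, and its log2 change was -0.23 ± 0.10 (SE) alone, -0.14 without Setd2f/f replicate 2, and -0.10 ± 0.09 (SE) with copies. Rpl31, at the exit of the peptide tunnel, was at 1099 and 1071 TPM in Setd2D/D, against 1298 and 1220.1 TPM in Setd2f/f, and its log2 change was -0.21 ± 0.09 (SE) alone and 0.02 ± 0.10 (SE) with copies. None of these negative changes passed limma (adjusted p between 0.463 and 0.546), and Rpl10a, Rpl12 and Rpl31 changed sign once copies were summed.

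Rplp1, an acidic stalk protein that recruits elongation factors, was the exception with hardly any copy. It was at 3299 and 3625 TPM in Setd2D/D, against 3845 and 4178 TPM in Setd2f/f, without overlap (log2 change -0.21 ± 0.10 SE, limma adjusted p = 0.504). Its partner Rplp2 was at 2505 and 2892 TPM in Setd2D/D, against 2807 and 2961 TPM in Setd2f/f. Rplp0, which anchors both on the large subunit, was at 3094 and 3538 TPM in Setd2D/D, against 3523 and 3681 TPM in Setd2f/f. All 3 stalk genes had a negative log2 change, between -0.21 and -0.10, and for Rplp0 and Rplp2 the genotypes overlapped. Without Setd2D/D replicate 1, the changes of Rplp0 and Rplp2 were -0.03 and 0.004.

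The fit with copies summed also gave 0 members past an adjusted p of 0.05, where 0.0751% of genes passed, and 3 at an unadjusted p under 0.05 (Rpl13a, Rpl13 and Rps7) beside 11.3% of genes. Rps7 with copies was at 3137 and 3216 TPM in Setd2D/D, against 3798 and 3809 TPM in Setd2f/f (log2 change -0.26 ± 0.08 SE, limma adjusted p = 0.393), though Rps7 alone had a log2 change of 0.02. The larger part of this difference lay in the copy Gm9493, at 339 and 337 TPM in Setd2D/D, against 929 and 703 TPM in Setd2f/f. Rpl21, a large subunit protein with 48 copies, also changed sign. It had a log2 change of -0.15 ± 0.10 (SE) alone and 0.30 ± 0.12 (SE, limma adjusted p = 0.460) with copies, at 5177 and 5589 TPM in Setd2D/D, against 3968 and 4822 TPM in Setd2f/f. The most abundant of these copies, Gm28900, is a short fragment aligned over 153 nt. It was at 2642 and 2728 TPM in Setd2D/D, against 1500 and 2384 TPM in Setd2f/f, so the sum rests largely on it.

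**Figure D4:**
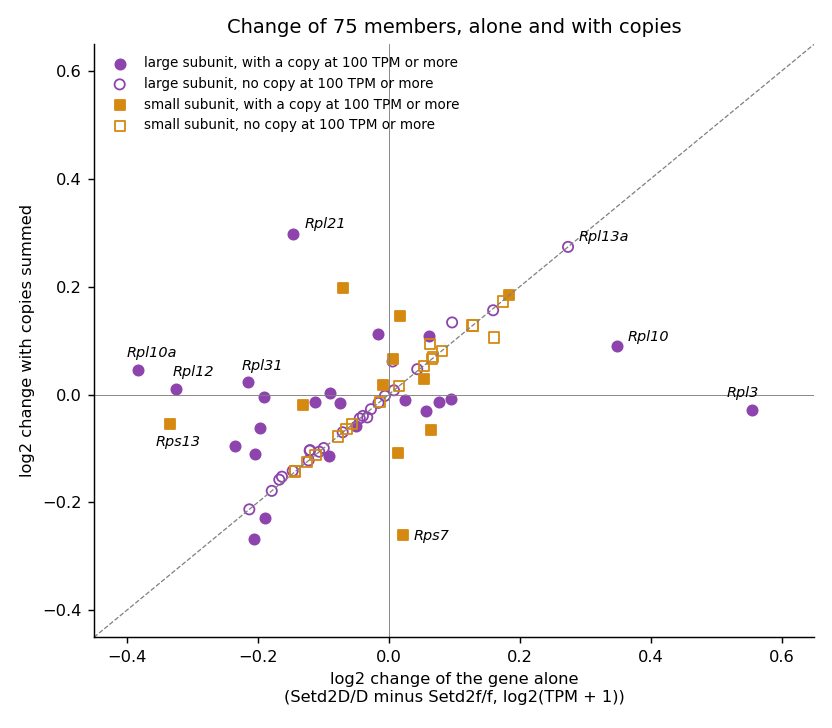
log2 change of each of the 75 tested members alone (x axis) and with near-identical copies summed (y axis), Setd2D/D minus Setd2f/f; circles are large subunit and squares small subunit genes, filled where a copy averaged at least 100 TPM. Open symbols lie near the dashed line of equality, while Rpl3, Rpl10, Rpl10a, Rps13, Rpl12 and Rpl31 lie closer to 0 on the y axis than on the x axis and Rps7 and Rpl21 move away from it.

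The SD of the log2 change was larger where an abundant copy existed, but the median absolute change was not. Among members with a copy of at least 100 TPM, the SD of the log2 change was 0.19 for genes alone and 0.12 with copies, and it was 0.11 for the 41 members without such a copy. For genes alone, the median absolute log2 change was 0.094 for members with such a copy and 0.097 for those without. Their median mean levels were 1082 and 2680 TPM, and the part of level in the SDs was not tested. The copies were tested in their own right. Of the 41 copies with a mean level of at least 100 TPM, the authors' deposited table calls 8 at an FDR of 0.05, 4 higher and 4 lower, which is 19.5% beside the 3.15% of all its genes. Of the 14755 genes tested by limma it calls 331 higher and 375 lower. Of the 120 copies with a mean of at least 1 TPM it calls 20 (16.7%). limma tested 105 of these and called 0, with 15 (14.3%) at an unadjusted p under 0.05, where 11.2% of all genes were.

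The balance between the subunits separated the genotypes, by a small amount. Large subunit genes summed to 79313 and 83641 TPM in Setd2D/D, against 82545 and 86231 TPM in Setd2f/f. Small subunit genes summed to 67503 and 70632 TPM in Setd2D/D, against 67460.4 and 70188 TPM in Setd2f/f. The ratio of large to small was 1.17 and 1.18 in Setd2D/D, against 1.22 and 1.23 in Setd2f/f, a log2 change of -0.06. Replicates differed by less than the genotypes, and the change stayed between -0.061 and -0.050 when any library was left out. With copies the ratio was 1.25 and 1.25 in Setd2D/D, against 1.28 and 1.28 in Setd2f/f, again without overlap, and the log2 change was -0.041. With 2 libraries against 2, an exact permutation test of this ratio cannot go below p = 0.333.

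**Figure D5:**
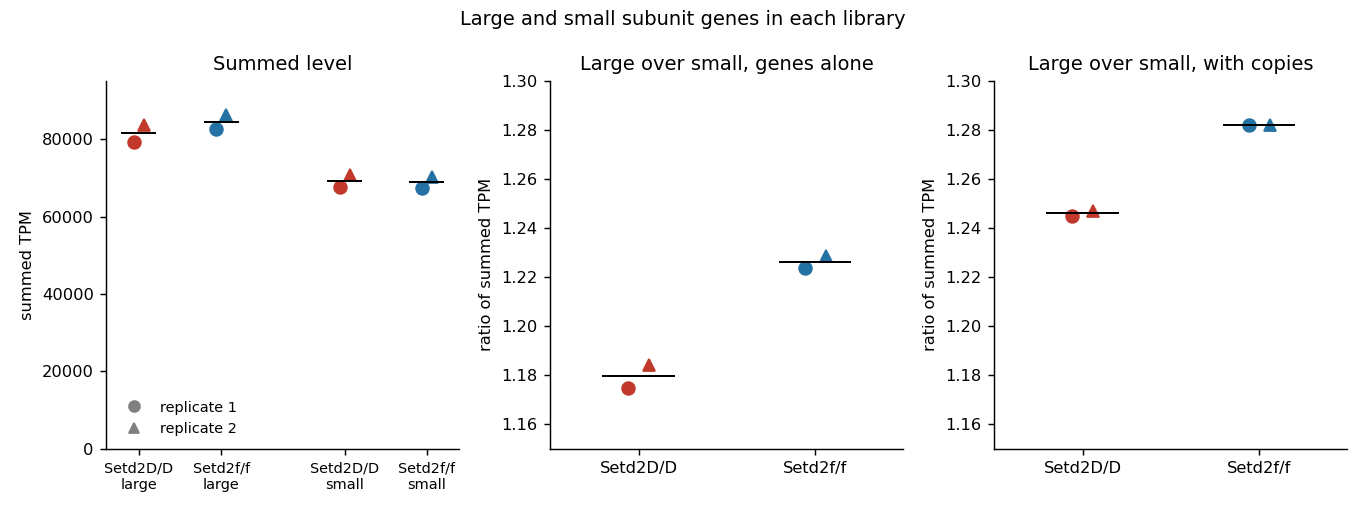
Summed TPM of large and small subunit genes (left) and the ratio of large to small for genes alone (middle) and with copies (right), with Setd2D/D left of Setd2f/f. Circles are replicate 1, triangles replicate 2 and bars the mean; the ratio axes do not begin at 0, and on both the 2 Setd2D/D libraries lie below the 2 Setd2f/f libraries.

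Member by member, the subunits differed in the direction of most of their changes. Of the 46 large subunit genes, 13 had a positive and 33 a negative log2 change. Their median of -0.08 became -0.03 with copies and with TMM scaling and -0.02 with median-of-ratios scaling, and leaving out a library gave -0.11 to -0.04. Of the 29 tested small subunit genes, 17 were positive and 12 negative (median 0.02, but -0.007 with quantile scaling). Together 30 of the 75 members (40.0%) were positive, where 42.1% of all genes tested were. Over all genes tested, 8538 of 14755 were negative and the median was -0.06, beside -0.08 for the large subunit genes. For 19 large subunit genes (41.3%) both Setd2D/D libraries were below both Setd2f/f libraries, and for 6 (13%) above. For 6 small subunit genes (20.7%) both were below, and for 7 (24.1%) above. Over all genes tested the shares were 27.6% below and 16.8% above, so the members together (25 below, 33.3%, and 13 above, 17.3%) were near the background. With copies summed, 20 members lay below (26.3%) and 13 above (17.1%), where 27.6% and 16.7% of genes did. By subunit, 12 large subunit genes then lay below (26.1%) and 5 above (10.9%). Of the small subunit genes, 8 lay below and 8 above (26.7% each). The share of large subunit genes below was then no longer over the background. In sign, 14 large subunit genes were positive and 32 negative, and 17 small subunit genes positive and 13 negative. Rps29, Rps12 and Rps23 with copies averaged 5792, 5081 and 4537 TPM in Setd2D/D, against 5095, 4532 and 3994 TPM in Setd2f/f. They weighed heavily in the rise of the small subunit sum with copies, while Rps7 with copies went the other way.

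By role, groups gave little beyond that split. All 9 genes lining or ringing the peptide exit tunnel belong to the large subunit, and 8 had a negative log2 change (median -0.07), with Rpl31, Rpl26, Rpl39 and Rpl23a at the smallest p-values. With copies summed, Rpl31 and Rpl35 turned positive, at 0.02 and 0.002. Over all genes tested, 8538 of 14755 had a negative change. Of 14 genes of the small subunit head and beak, 13 were tested, 7 positive and 6 negative (median 0.01). The 20 genes known from Diamond-Blackfan anaemia had a median of -0.07, with 2 above and 7 below the Setd2f/f range. Over all genes tested, 16.8% lay above and 27.6% below. Among the 20 genes Rpl31, Rpl15, Rpl18 and Rps19 had the smallest p-values, and Rpl18 was at 2067 and 2053 TPM in Setd2D/D, against 2302 and 2361 TPM in Setd2f/f. With copies summed, Rpl31 and Rpl15 overlapped between the genotypes. None of these groups had a gene past limma.

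Rpl5 and Rpl11, which with 5S ribosomal RNA hold back the p53 ligase MDM2 when ribosome assembly fails, did not pass the test in either direction. Rpl11 was at 1548 and 1726 TPM in Setd2D/D, against 1769.9 and 1984 TPM in Setd2f/f (log2 change -0.20 ± 0.11 SE alone and -0.06 ± 0.08 SE with copies). Rpl5 with copies was at 2563 and 2788 TPM in Setd2D/D, against 2895 and 2888 TPM in Setd2f/f (log2 change -0.11 ± 0.08 SE, limma adjusted p = 0.646).

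The X chromosome held 4 members. Beside Rpl10, Rps4x was at 3654 and 3959 TPM in Setd2D/D, against 4081 and 4214 TPM in Setd2f/f, and Rpl36a was at 753 and 822 TPM in Setd2D/D, against 913 and 883 TPM in Setd2f/f. For the genes alone, both were below the Setd2f/f range. With copies, Rpl36a overlapped at 2362 and 2339 TPM in Setd2D/D, against 2230.1 and 2494 TPM in Setd2f/f, and its log2 change of -0.19 ± 0.09 (SE) became -0.005 ± 0.09 (SE). Rpl39, a tunnel protein, overlapped at 1507 and 1722 TPM in Setd2D/D, against 1709 and 1796 TPM in Setd2f/f.

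Members with other known roles did not pass the test either. Rps6, the target of S6 kinase, was at 2339 and 1933 TPM in Setd2D/D, against 2353 and 2302 TPM in Setd2f/f. Rpl38, needed in mouse embryos for translation of Hox messages, was at 975 and 1187 TPM in Setd2D/D, against 971 and 1072 TPM in Setd2f/f. Rpsa, also known as the laminin receptor, was at 1326 and 1397 TPM in Setd2D/D, against 1257 and 1367 TPM in Setd2f/f. The genotypes overlapped for these and for Rpl22 and Rps27, with log2 changes between -0.13 and 0.08. With copies, the change of Rps6 (-0.13 alone) was -0.02 ± 0.08 (SE) and that of Rpsa 0.03 ± 0.10 (SE), and Rpl38 changed sign to -0.01 ± 0.10 (SE).

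A run of C and T stood at or near the annotated start of 25 of the 56 members with a RefSeq entry. Whether these runs begin the message, as a TOP tract does, was not tested. Windows from 20 bases before to 20 after the RefSeq start (GRCm38.p6) are printed with the run of C and T at the start in capitals, for Rps6 (chr4:86857348-86857387, minus strand), Rpl38 (chr11:114668560-114668599, plus strand), Rplp2 (chr7:141447631-141447670, plus strand), Rpl15 (chr14:18270967-18271006, minus strand) and Rpl12 (chr2:32961692-32961731, plus strand).
Rps6: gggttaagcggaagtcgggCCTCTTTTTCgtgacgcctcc
Rpl38: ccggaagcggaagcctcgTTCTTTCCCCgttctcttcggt
Rplp2: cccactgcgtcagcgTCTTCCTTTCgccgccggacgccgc
Rpl15: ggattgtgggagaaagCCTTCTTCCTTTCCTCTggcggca
Rpl12: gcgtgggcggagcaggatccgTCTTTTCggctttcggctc
Of the 76 members, 56 matched the RefSeq promoter table, with 66 start windows. A run of at least 6 C or T within 5 bases of the start was present in 39.4% of these windows, against 13.7% of all 32851. In promoters running from 250 bases before to 50 after the start, read on both strands, CCGGAAG, the core of the binding motif of ETS-family factors such as GABPA, stood in 36.4% of the members' windows, against 8.86% of all. CACGTG, the E-box letters read by MYC, stood in 12.1%, against 7.15%, and TATAAA in 9.09%, against 13.6%. These are matches of letters in the annotated windows, and the window of Rpl10 had no such run.

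Other ribosomal protein genes, under names that the rule does not match, did not pass the test. Rps3a1 and Gnb2l1 (the scaffold RACK1) had log2 changes of -0.10 and -0.09. Fau, which encodes a ubiquitin-like fusion with a small subunit protein, was at 246 and 276 TPM in Setd2D/D, against 336 and 321 TPM in Setd2f/f (log2 change -0.33 ± 0.10 SE, limma adjusted p = 0.407). Of 9 paralogues of members, 7 were tested and 0 passed limma. Rps27l, a p53-responsive paralogue of Rps27, was at 315 and 287 TPM in Setd2D/D, against 203 and 247 TPM in Setd2f/f, with an FDR of 0.0352 in the authors' deposited table. Rpl22l1, the paralogue of Rpl22, was at 776 and 667 TPM in Setd2D/D, against 626 and 603 TPM in Setd2f/f, a log2 change of 0.23 ± 0.11 (SE) that did not pass limma (adjusted p = 0.509) and stood beside -0.04 ± 0.10 (SE) for Rpl22.

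Neighbouring groups of genes gave their own counts. Of 38 ribosome biogenesis genes, 25 had a positive log2 change (median 0.07) and the authors' deposited table calls 3 higher, among them Npm1, a nucleolar chaperone, at 2511 and 2365 TPM in Setd2D/D, against 1822 and 2015 TPM in Setd2f/f. Of 17 translation factors and other non-ribosomal TOP genes, the authors' deposited table calls 1 higher, again Npm1, and their median log2 change was -0.02. Among 21 chaperones and importers of ribosomal proteins, Tsr2, the escort of Rps26 in yeast, was at 28.8 and 25.8 TPM in Setd2D/D, against 40.5 and 47.2 TPM in Setd2f/f. The authors' deposited table calls 0 of these 21 genes, and their median log2 change was -0.03. Of 16 regulators of ribosomal protein genes, 13 had a negative log2 change (median -0.18), and Mycn was called lower in the authors' deposited table. The 77 mitochondrial ribosomal protein genes had a median log2 change of -0.04, equal to that of the cytoplasmic members, with an SD of 0.29, and the authors' deposited table calls 1 lower. limma called 0 genes in each of these lists, with unadjusted p under 0.05 for 3 biogenesis (7.89%), 4 TOP (23.5%), 1 chaperone (4.76%), 3 regulator (18.8%) and 9 mitochondrial genes (11.7%), beside 11.2% of all genes tested. The authors' calls stand beside 1.51% of genes called higher and 1.64% called lower in their table.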

How the data were processed

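The authors deposited a TPM table and a comparison table that holds, per the file headers, each gene's linear ratio, its log2 change, its mean abundance as log2 CPM, the F score of a test and FDR values (adjusted p-values). cutadapt, RSEM, edgeR and the mm10 build are named per the submitters' processing notes, without roles or versions. How multi-mapping reads were treated and whether strand was kept was not found in the labels. TPM is scaled to the same total in every library, so a value depends on all other genes. The authors' log2 fold change was read as Setd2D/D over Setd2f/f, since 753 of the 754 genes past an FDR of 0.05 had a TPM difference of that sign.

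Genes at 1 TPM or more in at least 2 libraries (14755) were transformed to log2(TPM + 1), which understates changes of low genes, and fitted with limma 3.58.1 in R 4.3.3 (genotype term, abundance trend, 2-sided, Benjamini-Hochberg at 0.05). The fit was run on simulated data with the same spread for every gene and planted changes far larger than those of the members. That run does not cover changes as small as theirs. Copies were found with BLAST 2.17.0 in GENCODE M21, whose IDs matched 46005 of the 46517 genes, and summing them was chosen after the data were seen. Alternatives were other pseudocounts, filters, scalings and variance moderation, a replicate block and leaving out each library. Named were the 6 largest changes each way, the 5 highest and lowest levels, called genes and set role groups; Rps7, Rpl21 and Rpl13 were added after their summed values were seen. The members and lists were chosen with earlier results of these data known.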

Additional observations from a re-analysis of the deposited data

How the results depend on the processing

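Under every setting run, including the replicate block and the sum with copies, 0 members passed limma, and between 0 (without the abundance trend) and 14 (quantile scaling) had an unadjusted p under 0.05, with 9 under the block. Over all genes the count of 10 became 3 with a pseudocount of 0.1, 0 with no filter, 19 without the abundance trend and 0 with the replicate block, and leaving out any library gave 0 to 0. The labels do not say whether the replicate numbers pair the libraries, so the block is given here only. Over all genes tested, deviations from the group means correlated at 0.041 between same-numbered libraries. With 2 libraries per group both replicate numbers give this same value, and it does not settle the pairing. The authors' deposited table has 2 members past an FDR of 0.1. The members' median log2 change became 0.020 with median-of-ratios scaling and that of the small subunit 0.068 with TMM and 0.075 with median-of-ratios scaling, and leaving out a library moved the small subunit median between -0.033 and 0.055. The change of the summed level (-0.025) became 0.028 with TMM and 0.034 with median-of-ratios scaling, and the large to small change became -0.041 with copies. Summing copies turned the sign of Rpl10a (0.046), Rpl12 (0.010), Rpl27 (-0.030), Rpl3 (-0.029), Rpl31 (0.023) and Rpl38 (-0.013), which follows from the copies' own levels. Rpl22 turned to 0.013 with TMM and 0.020 with median-of-ratios scaling. Leaving out a library turned genes near 0, with ranges of -0.098 to 0.019 for Rpl22, -0.045 to 0.16 for Rpl27, -0.065 to 0.22 for Rpl38, -0.20 to 0.0044 for Rplp2, -0.053 to 0.16 for Rps27, -0.27 to 0.0070 for Rps6 and -0.0062 to 0.11 for Rpsa. Other causes were not tested. With no counts analysed here, depth is unknown and no counting error can be given.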
